A study of Mus musculus with 6 samples.

Results

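The teneurins *Tenm1*, *Tenm2*, *Tenm3* and *Tenm4* were examined in the cerebral cortex of male mice. They were found by gene symbol in both deposited array tables, which gave 11 probe sets for the 4 genes, out of 45077 probe sets and 22527 gene symbols in all. The array reads a transcript with a set of short probes, and a gene can have several such probe sets. *Tenm1* had 2 probe sets, *Tenm2* had 4, *Tenm3* had 2 and *Tenm4* had 3. None of the 11 carried a further gene symbol.

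The study compared 3 groups of 2 mice on Affymetrix mouse expression arrays, with 1 array for each mouse. SAMP8 is a non-transgenic, senescence-accelerated mouse strain, and SAMR1 is the senescence-resistant strain that stands for normal aging. SAMP8 mice received either sugarcane top ethanolic extract (STEE) by mouth at 20 mg/kg or water, and SAMR1 mice received water, in each group for 30 days and through 8 further days of behavioral testing. The groups are called SAMP8 + STEE, SAMP8 + Water (the SAMP8 control) and SAMR1 + Water. The labelled age, 16 weeks, is the age at which the mice entered the study, before acclimatization and administration, so the tissue came from older mice. All mice had been through the behavioral tests, and SAMR1 is a separate inbred strain, so that SAMP8 control and SAMR1 differ in genetic background as a whole.

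The strain difference is SAMP8 control minus SAMR1, and the STEE difference is STEE-fed SAMP8 minus SAMP8 control. Only the authors' mean log2 signal of each group was used, given to 2 decimals. No value of a single mouse entered the calculations, and no spread, standard error or p-value is given for any difference below. A difference of 2 such means can be off by up to 0.01 through rounding alone. As a yardstick, the median absolute difference over all probe sets was 0.07 for the strain difference, 0.06 for the STEE difference and 0.08 between STEE-fed SAMP8 and SAMR1. Whether a difference exceeds the variation between mice was therefore not tested.

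Teneurins are large type II transmembrane proteins of neurons, with a short intracellular part and a long extracellular part that carries EGF-like repeats, a beta-propeller and a barrel of tyrosine-aspartate repeats. They act as adhesion molecules across the synaptic cleft and between growing axons and their targets, either by binding to each other or by binding to latrophilins, a family of adhesion G protein-coupled receptors. Latrophilins in turn bind the FLRT proteins, and FLRT proteins also bind the Unc5 netrin receptors. *Tenm2* encodes the high-affinity latrophilin ligand also known as Lasso, *Tenm3* guides wiring in the hippocampus and the visual pathway, *Tenm4* has been tied to oligodendrocyte differentiation and myelination, and *Tenm1* lies on the X chromosome and gives rise to a bioactive C-terminal peptide.

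Of the 4 genes, *Tenm2* differed most between the groups. Its 3 brighter probe sets were lower in the SAMP8 control than in SAMR1 and, relative to that control, higher in STEE-fed SAMP8, each by at least 1.2-fold. No probe set of *Tenm1*, *Tenm3* or *Tenm4* differed by 1.2-fold in either comparison. Every probe set of these genes was slightly higher with STEE, where 47.3% of all probe sets were higher, and 54.0% of those above the median signal.

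**Figure D1:**
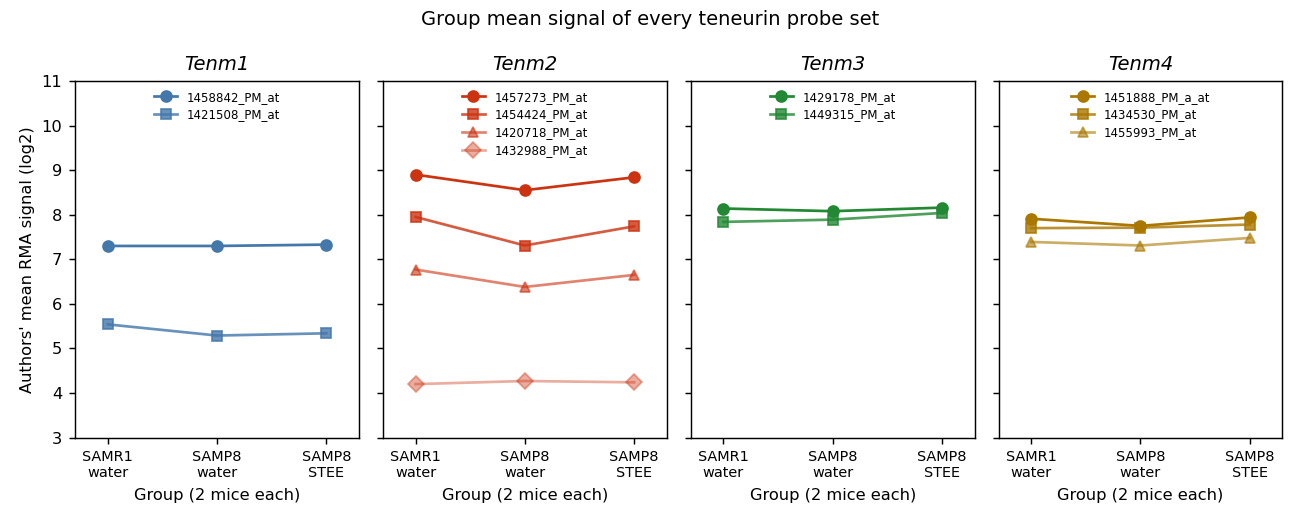
Authors' mean RMA signal (log2, vertical axis) in the 3 groups of 2 mice (horizontal axis) for each of the 11 teneurin probe sets, with 1 panel for each gene and 1 line for each probe set. The 3 brighter *Tenm2* probe sets dip in SAMP8 control, while the lines of *Tenm3* and *Tenm4* stay within 0.20 of their own level in SAMR1.

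At the *Tenm2* probe set 1457273_PM_at, the brightest of the gene, the authors' mean log2 signal was 8.90 in SAMR1, 8.55 in SAMP8 control and 8.84 with STEE. At 1454424_PM_at the means were 7.95, 7.31 and 7.74 in the same order. The third probe set, 1420718_PM_at, stood at 6.77, 6.38 and 6.65. In these 3 probe sets SAMR1 was the highest group and SAMP8 control the lowest, with STEE-fed SAMP8 between them. The fourth probe set, 1432988_PM_at, did not share this order, with 4.20, 4.27 and 4.24.

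SAMP8 control differed from SAMR1 by -0.35, -0.64 and -0.39 on the log2 scale at the 3 brighter *Tenm2* probe sets, that is 1.27-fold, 1.56-fold and 1.31-fold lower. Over the whole array, 3.43% of probe sets had a lower mean in SAMP8 control by at least 1.2-fold, and 5.23% of those above the median signal. The absolute differences of these 3 probe sets exceeded those of 96.4%, 99.3% and 97.4% of all probe sets. At the dim probe set the difference was 0.07.

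STEE-fed SAMP8 differed from SAMP8 control by 0.29, 0.43 and 0.27 at the same probe sets, 1.22-fold, 1.35-fold and 1.21-fold higher. In this comparison 1.03% of all probe sets were higher by at least 1.2-fold, and 1.67% of those above the median signal. The absolute differences exceeded those of 98.5%, 99.7% and 98.0% of all probe sets. The value of 0.27 lies within the rounding error of the 1.2-fold threshold, which is 0.263 on the log2 scale. The dim probe set was lower by 0.03, and the mean STEE difference over all 4 *Tenm2* probe sets, 0.24, was under the threshold. Both comparisons share the SAMP8 control mean, so a low value in those mice would shift both of them, in opposite directions.

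STEE-fed SAMP8 vs. SAMR1 does not use the SAMP8 control mice. Here the 3 brighter *Tenm2* probe sets differed by -0.06, -0.21 and -0.12, or 1.04-fold, 1.16-fold and 1.09-fold lower with STEE. Their absolute differences exceeded those of 37.6%, 86.3% and 66.0% of all probe sets. No teneurin probe set differed by 1.2-fold in this comparison, in which 4.6% of all probe sets were higher and 3.25% lower by that much.

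**Figure D2:**
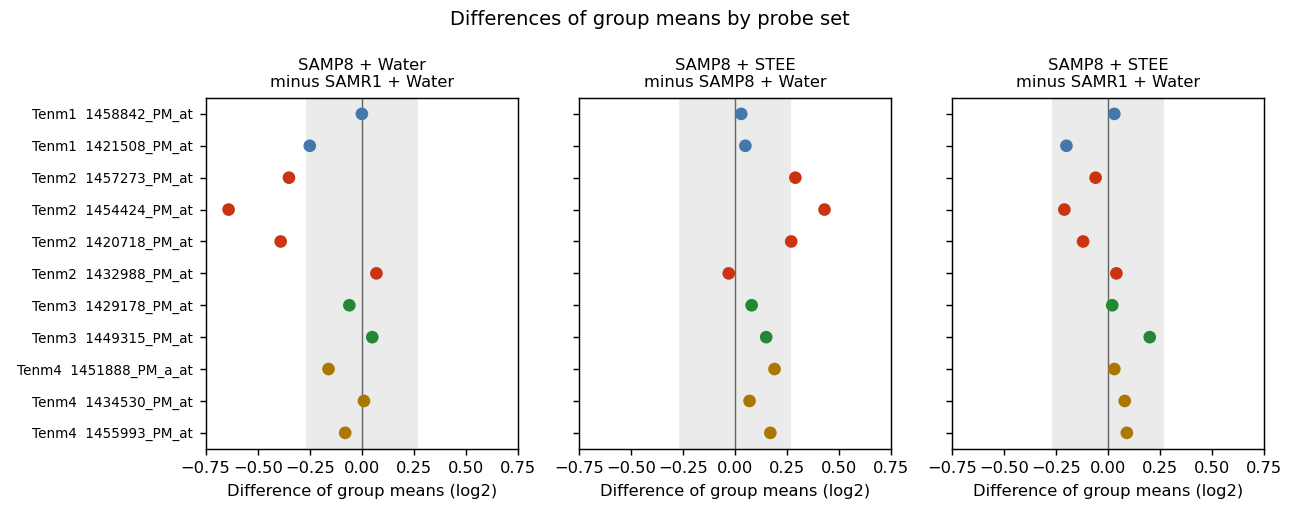
Difference of the authors' group means (log2, horizontal axis) for the 11 teneurin probe sets (vertical axis) in the 3 comparisons. The grey band marks differences under 1.2-fold, and the rounding error of 0.01 is smaller than the points. The 3 brighter *Tenm2* probe sets lie outside the band in both comparisons with SAMP8 control and inside it between STEE-fed SAMP8 and SAMR1.

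The probe sets of *Tenm2* did not give the same size of difference, from -0.35 to -0.64 between the strains and from 0.27 to 0.43 with STEE among the 3 brighter ones. The probe sets 1454424_PM_at and 1432988_PM_at name the same transcript cluster in the array design, yet the former had the largest difference of the family in both comparisons with SAMP8 control and the latter differed by 0.07 and -0.03. The mean signal of 1432988_PM_at, 4.24, was near the median of all probe sets, 4.15. Genes of other organs that cortex should lack, a list of 10 such as *Alb* (serum albumin) and *Ins1* (insulin), had mean signals from 3.06 to 4.95 at their brightest probe sets, so the signal of 1432988_PM_at was within the range of genes taken to be silent. The other 10 teneurin probe sets, from 5.39 to 8.76, were above that range.

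The promoter window of *Tenm2* is shown because it belongs to the member with the largest differences. That of *Tenm3* is shown for contrast, as a member whose probe sets differed by less than 1.2-fold, which also holds for *Tenm1* and *Tenm4*. Each RefSeq window runs from 250 bases before to 50 bases after an annotated transcription start on GRCm38.p6, and is printed 5′ to 3′ as the table gives it, with matches to 5 motifs in capitals. Both starts lie inside the full span of their gene, so other starts exist upstream that are not shown here.
Tenm2, chr11:36944192-36944491, minus strand: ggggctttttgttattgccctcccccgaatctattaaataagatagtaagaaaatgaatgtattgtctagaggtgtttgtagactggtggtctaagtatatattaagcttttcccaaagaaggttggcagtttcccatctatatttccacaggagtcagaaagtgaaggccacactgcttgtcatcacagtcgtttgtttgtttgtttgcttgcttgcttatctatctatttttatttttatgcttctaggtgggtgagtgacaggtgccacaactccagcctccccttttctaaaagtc
Tenm3, chr8:48674641-48674940, minus strand: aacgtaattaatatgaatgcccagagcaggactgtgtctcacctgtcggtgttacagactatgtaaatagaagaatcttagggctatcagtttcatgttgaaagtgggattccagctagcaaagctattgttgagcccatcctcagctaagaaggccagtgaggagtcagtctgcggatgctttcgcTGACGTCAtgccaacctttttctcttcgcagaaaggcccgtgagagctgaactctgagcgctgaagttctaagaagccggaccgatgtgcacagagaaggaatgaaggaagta

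The motifs were the cAMP response element TGACGTCA, the AP-1 site TGANTCA, the E-box CACGTG, the TATA box TATAAA and the CCAAT box CCAAT, searched on both strands. The *Tenm2* window held none of them and was poor in G and C, 40.0%, against a median of 52.7% over 32851 windows, with 2 CpG dinucleotides against a median of 7. The *Tenm3* window held a cAMP response element that begins at position -63 relative to the start, a motif found in 1.79% of all windows, and had a G and C content of 47.3%. The *Tenm1* window, with 27.0%, had a lower G and C content than all but 0.307% of windows and held 4 TATA matches on the 2 strands, of which 2 overlap, where 13.6% of windows hold at least 1. The table has 2 windows for *Tenm4*, with 52.0% and 52.3%, and neither held any of the 5 motifs. The starts of the *Tenm1* window and of the *Tenm4* window with 52.3% also lie inside the full span of their gene. AP-1, E-box and CCAAT matches, in 7.81%, 7.15% and 37.4% of all windows, were absent from the 5 teneurin windows. No measurement of these arrays reads a promoter, and a match is only a run of letters.

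*Tenm4* was read by 3 probe sets of similar brightness. The authors' mean log2 signal at 1451888_PM_a_at, a probe set that covers several transcripts of the gene, was 7.91 in SAMR1, 7.75 in SAMP8 control and 7.94 with STEE. At 1434530_PM_at it was 7.70, 7.71 and 7.78, and at 1455993_PM_at it was 7.39, 7.31 and 7.48. STEE-fed SAMP8 had the highest mean at all 3. The lowest group was SAMP8 control at 1451888_PM_a_at and 1455993_PM_at and SAMR1 at 1434530_PM_at, where SAMR1 and SAMP8 control differed by 0.01, no more than rounding can give.

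With STEE the 3 *Tenm4* probe sets exceeded the control by 0.19, 0.07 and 0.17, or 1.14-fold, 1.05-fold and 1.13-fold. These were larger in size than 92.9%, 53.3% and 90.1% of all probe sets. SAMP8 control differed from SAMR1 by -0.16, 0.01 and -0.08. Between STEE-fed SAMP8 and SAMR1 the differences were 0.03, 0.08 and 0.09. The 3 probe sets thus had the same sign with STEE and differed in sign between the strains.

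*Tenm4* is also the host of 2 microRNA genes. All mature forms listed for them by RefSeq on GRCm38.p6 lie within the gene's span on chromosome 7, on its own strand. They are shown because transcripts of the host gene run through them, with the seed, bases 2 to 8, in capitals.
mmu-miR-708-5p, chr7:96249450-96249472, plus strand: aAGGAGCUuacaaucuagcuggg
mmu-miR-708-3p, chr7:96249496-96249517, plus strand: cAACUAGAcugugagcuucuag
mmu-miR-6394, chr7:96305740-96305760, plus strand: uCCCUGAGuggggccaggucu

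The seed of mmu-miR-708-5p is shared with mmu-miR-28a-5p, and that of mmu-miR-6394 with mmu-miR-125a-5p, mmu-miR-125b-5p, mmu-miR-351-5p and mmu-miR-6367. The seed of mmu-miR-708-3p was not shared with another mature form in the table. No probe set of the array named Mir708 or Mir6394, so their levels were not measured here. None of the other 3 teneurin genes held a microRNA of the table.

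*Tenm3* had 2 probe sets. At 1429178_PM_at the authors' mean log2 signal was 8.14 in SAMR1, 8.08 in SAMP8 control and 8.16 with STEE. At 1449315_PM_at it was 7.84, 7.89 and 8.04. STEE-fed SAMP8 again had the highest mean at both, and the order of SAMR1 and SAMP8 control was opposite at the 2 probe sets. The STEE difference was 0.08 at the former and 0.15 at the latter, or 1.06-fold and 1.11-fold. SAMP8 control differed from SAMR1 by -0.06 and 0.05, both under the median absolute difference of all probe sets, and STEE-fed SAMP8 differed from SAMR1 by 0.02 and 0.20.

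*Tenm1* gave different values at its 2 probe sets. The brighter, 1458842_PM_at, had authors' means of 7.30 in SAMR1, 7.30 in SAMP8 control and 7.33 with STEE. The 3 groups were thus level to within 0.03. At 1421508_PM_at the means were 5.54, 5.29 and 5.34, so that both SAMP8 groups lay below SAMR1. SAMP8 control was lower there by 0.25, 1.19-fold, just inside the 1.2-fold threshold, a larger absolute difference than 91.5% of all probe sets, and STEE-fed SAMP8 was lower than SAMR1 by 0.20. With STEE the probe sets differed from SAMP8 control by 0.03 and 0.05, each smaller than the median absolute difference of the array.

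Counted over the family, 3 of the 11 probe sets, all of *Tenm2*, had a strain difference of at least 1.2-fold downward and none upward, where 3.43% and 3.68% of all probe sets did. The median difference of the 11 was -0.08, against 0.00 over all probe sets. With STEE, the same 3 probe sets were higher than in SAMP8 control by at least 1.2-fold, where 1.03% of all probe sets were. None was lower by that much, where 0.976% were, and the median was 0.15 against 0.00. In sign alone, 10 of the 11 were higher with STEE, against 47.3% of all probe sets and 54.0% of those above the median signal. In SAMP8 control vs. SAMR1, 7 were lower, 3 higher and 1 equal, against 49.6% lower over the array. Probe sets of 1 gene are not independent of each other, and the 11 values come from 4 genes.

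**Figure D3:**
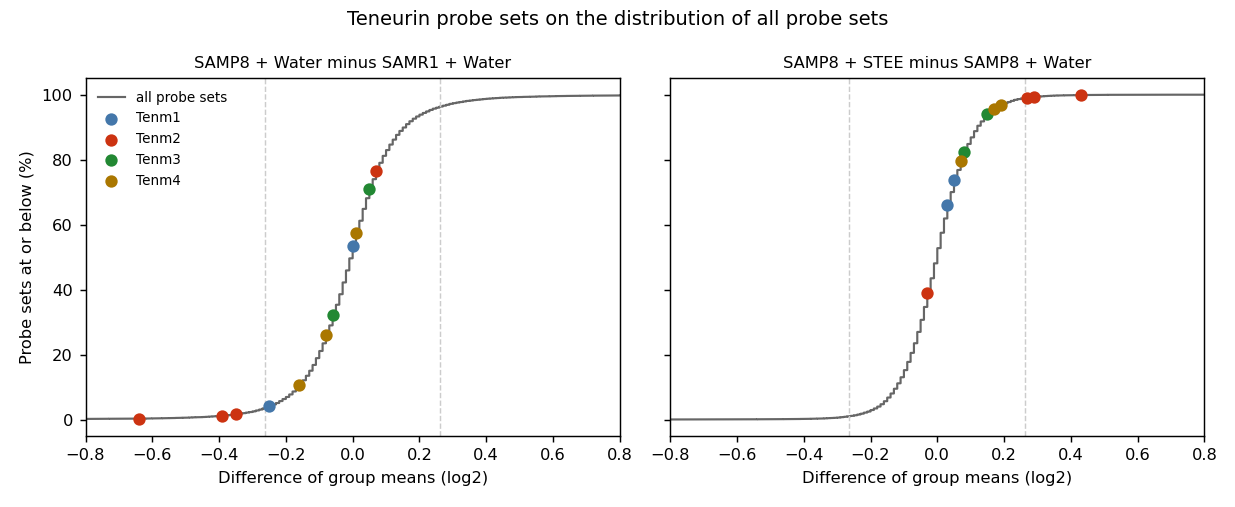
Share of all 45077 probe sets at or below a given difference of group means (vertical axis, %) against the difference (log2, horizontal axis), as a grey line, with the 11 teneurin probe sets as points colored by gene. Dashed lines mark 1.2-fold. Of the teneurin points, only 3 of *Tenm2* lie beyond a dashed line, on the lower side for the strain difference and on the upper side for the STEE difference.

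Direct and indirect partners of teneurins were described through a list of 14 genes, all on the array with 39 probe sets. Each gene was read from its brightest probe set. FLRT proteins are on the list as partners of latrophilins, and Unc5 receptors as partners of FLRT proteins. With STEE, 2 of the 14 genes were higher than in SAMP8 control by at least 1.2-fold, where 1.1% of all genes were, and none was lower, where 0.923% were. Both encode FLRT proteins, *Flrt2* and *Flrt3*. The *Flrt2* difference, 0.27, lies within the rounding error of the 1.2-fold threshold. None of the 14 differed by that much between SAMP8 control and SAMR1, where 3.68% of all genes were higher and 3.19% lower. The median difference of the list was 0.065 with STEE and -0.035 between the strains, against 0.00 for all genes in both.

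The latrophilins, which bind teneurins directly, did not differ by 1.2-fold from SAMP8 control at any probe set, either in SAMR1 or with STEE. They carry their older names on the array, *Lphn1*, *Lphn2* and *Lphn3*, for the genes now called *Adgrl1*, *Adgrl2* and *Adgrl3*. The authors' mean log2 signal was 9.34 in SAMR1, 9.41 in SAMP8 control and 9.47 with STEE for *Lphn1*, 7.72, 7.82 and 7.83 for *Lphn2*, and 7.46, 7.44 and 7.52 for *Lphn3*. Their 11 probe sets differed by 0.00 to 0.16 with STEE. Of these, 10 were higher, against 47.3% of all probe sets and 54.0% of those above the median signal. Between the strains they ranged from -0.19 to 0.17, with both signs among the probe sets of *Lphn2* and of *Lphn3*. STEE-fed SAMP8 differed from SAMR1 by -0.15 to 0.30, and the highest value, at the *Lphn3* probe set 1439313_PM_at, was 1.23-fold.

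The FLRT proteins, which bind latrophilins, held the largest STEE differences of the list. *Flrt3* had authors' means of 6.80 in SAMR1, 6.66 in SAMP8 control and 7.04 with STEE at its brightest probe set, and 5.92, 5.72 and 6.22 at its other. STEE-fed SAMP8 was thus the highest group and SAMP8 control the lowest at both. The differences with STEE were 0.38 and 0.50, or 1.30-fold and 1.41-fold. *Flrt2* stood at 7.77, 7.73 and 8.00, a difference of 0.27 with STEE. Its other 2 probe sets were higher by 0.21 and 0.20, under the 1.2-fold threshold. *Flrt1*, at 6.41, 6.54 and 6.53, differed by -0.01 with STEE at its brightest probe set and by 0.24 at the other. The group means of that other probe set, 4.57 to 4.81, were within the range of the genes from other organs. Over the 7 FLRT probe sets the median was 0.24 with STEE and -0.13 between the strains. All 7 exceeded SAMR1 in STEE-fed SAMP8, by 0.06 to 0.30. Of all probe sets 43.7% did so, and 51.9% of those above the median signal.

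Among the Unc5 netrin receptors, *Unc5a* had the largest difference with STEE, with authors' means of 5.90 in SAMR1, 5.72 in SAMP8 control and 5.92 with STEE. *Unc5b*, *Unc5c* and *Unc5d* differed by -0.06, 0.00 and 0.07 with STEE at their brightest probe sets. The other *Unc5b* probe set, 1453269_PM_at, was below SAMR1 in both SAMP8 groups, with differences of -0.28 in SAMP8 control and -0.33 with STEE, or 1.21-fold and 1.26-fold. The other *Unc5c* probe set, 1419592_PM_at, had a strain difference of 0.26, just under the threshold, and a STEE difference of -0.10. Its group means, 4.40 to 4.66, were within the range of the genes from other organs. Those of 1453269_PM_at, 4.76 to 5.09, were near the upper end of that range. *Dag1*, which encodes dystroglycan, was level at 7.77, 7.75 and 7.72.

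The genes of intracellular partners were *Mbd1*, a methyl-CpG binding protein, *Hint1*, a nucleotide-binding protein, and *Ptk2*, the focal adhesion kinase. With STEE they differed from SAMP8 control by 0.12, 0.01 and 0.24. *Ptk2* stood at 7.46 in SAMR1, 7.58 in SAMP8 control and 7.82 with STEE, and its difference of 0.36 between STEE-fed SAMP8 and SAMR1 was the only one of the 14 genes to reach 1.2-fold in that comparison, where 4.44% of all genes were higher by that much. Its other 3 probe sets differed there by -0.03, -0.06 and 0.10. Their group means, 2.57 to 4.85, were within or below the range of the genes from other organs.

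**Figure D4:**
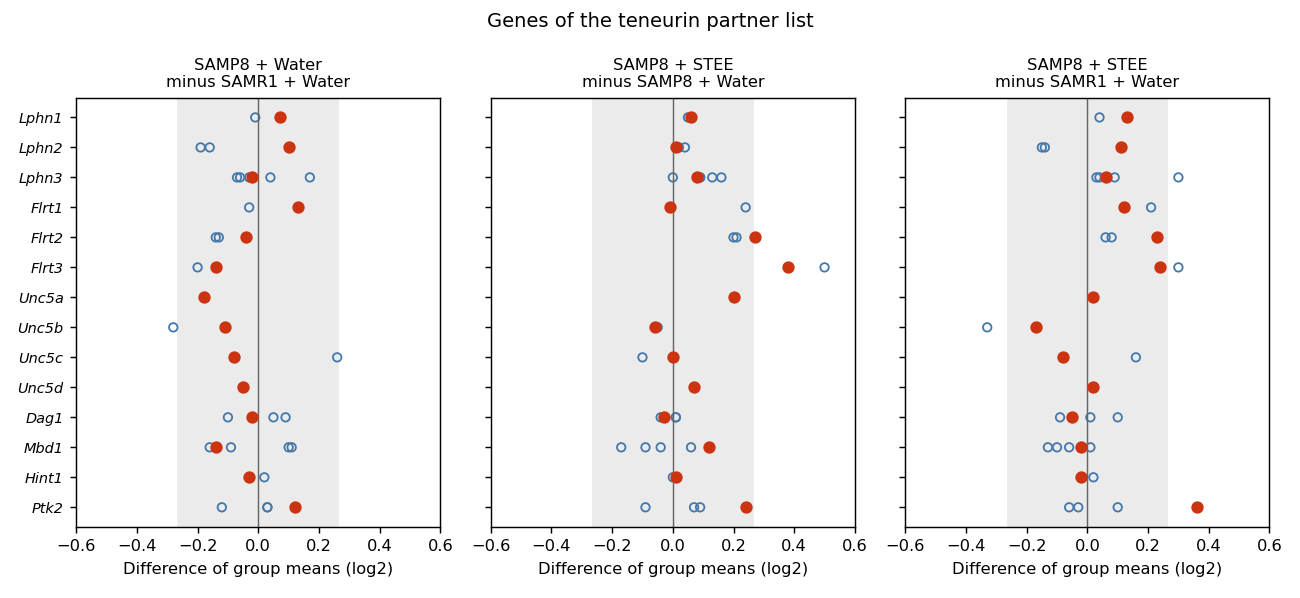
Difference of the authors' group means (log2, horizontal axis) for 14 genes of direct or indirect teneurin partners (vertical axis) in the 3 comparisons. Filled points are the brightest probe set of a gene, open points its other probe sets, and the grey band marks differences under 1.2-fold. *Flrt3* at both probe sets and *Flrt2* at its brightest lie beyond the band with STEE, *Flrt2* by less than the rounding error. Between the strains an open point of *Unc5b* lies beyond it but no filled point.

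The profile of each gene's brightest teneurin probe set over the 3 groups was set beside that of 11857 other genes, with likeness taken as the Euclidean distance between the centered group means. With 3 points per gene such matches are common. The nearest to *Tenm2* were *2010315B03Rik* and *Cdkl4*, a kinase gene, both at a distance of 0.016. Next came *Gal3st1*, the sulfotransferase that makes the myelin lipid sulfatide, at 0.022. Its group means, 4.35 to 4.67, were within the range of the genes from other organs. Within a distance of 0.05 lay 21 genes for *Tenm2*, 281 for *Tenm4*, 1527 for *Tenm3* and 2255 for *Tenm1*. *9930013L23Rik*, *Ints9* and *Pars2* matched *Tenm4* exactly to 2 decimals. For *Tenm3* and *Tenm1*, 11 and 13 genes matched exactly, among them *AU015680*, *Armc8* and *Ascl3* for the former and *2310009A05Rik*, *Brwd1* and *Cic* for the latter, named by alphabet. The group means of *9930013L23Rik*, *Pars2* and *Ascl3* were also within the range of the genes from other organs.

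The tissue label was checked with marker genes, each read from its brightest probe set. Cortical neuron markers were well above the range of genes from other organs, with *Rbfox3* between 10.13 and 10.22 and *Snap25* between 11.38 and 11.58 in the 3 group means. Their strain differences ranged from -0.25 to 0.27 with a median of 0.11, and *Neurod6*, at 8.00, 7.75 and 7.93 in SAMR1, SAMP8 control and STEE-fed SAMP8, had the same order of groups as the brighter *Tenm2* probe sets. Markers of neighbouring tissue differed between the strains, in a comparison where 3.68% of all genes were higher and 3.19% lower by at least 1.2-fold. All 6 striatal markers exceeded SAMR1 in SAMP8 control by at least 1.2-fold, by 0.32 to 0.89, with *Drd1* and *Drd2*, the dopamine receptors, at 0.89 and 0.35. Of 5 thalamic markers, 4 were lower by at least 1.2-fold, over a range of -0.97 to -0.14, with *Tcf7l2* at -0.97 and *Prkcd* at -0.78. The thalamic markers *Plekhg1* and *Lef1* had mean signals of 4.93 and 4.92, within the range of the genes from other organs. Of 5 myelin genes, 4 were lower by at least 1.2-fold, from -0.63 to -0.15 over the list, with *Mbp* at -0.15 and *Mog* at -0.63. Of 6 hippocampal markers, 3 were lower by that much, from -0.56 to 0.14 over the list, with *Prox1* at -0.15 and *Dsp* at -0.56, and all but *Wfs1* had a mean signal within the range of the genes from other organs. Of 5 choroid plexus markers, 2 were lower by that much, *Ttr* at -1.96 and *Kcnj13* at -0.43, and the list ranged up to 0.02. *Folr1*, *Kl* and *Kcnj13* had mean signals of 3.58, 3.16 and 3.47, within the range of the genes from other organs. The part of these tissue differences in the lower *Tenm2* signal of SAMP8 control was not tested. In a piece of tissue, fewer cells of a type cannot be told apart from less RNA per cell.

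In the STEE difference the same markers lay closer together. The striatal list differed by a median of 0.07 and a range of -0.03 to 0.18, the thalamic list by a median of -0.03 with *Plekhg1* at 0.42 as its highest value, the myelin list by a median of -0.04 and a range of -0.08 to 0.18, and the hippocampal list by a median of -0.03 and a range of -0.18 to 0.22. *Ttr* was an exception, higher with STEE by 1.09, and the other 4 choroid plexus markers, *Folr1*, *Kl*, *Kcnj13* and *Clic6*, differed by -0.09, 0.00, 0.22 and 0.01. Cortical neuron markers were all higher with STEE, by 0.04 to 0.29, with *Tbr1* at 0.29, where 48.4% of all genes were higher. Of other cell types, interneuron markers such as *Gad1* and *Gad2* differed by a median of -0.03 with STEE, those of oligodendrocyte precursors, *Pdgfra* and *Cspg4*, by 0.06, those of astrocytes such as *Gfap* and *Aqp4* by -0.02, those of microglia such as *Cx3cr1* and *Aif1* by -0.02 and those of endothelium such as *Cldn5* and *Pecam1* by 0.14. Between the strains these lists differed by medians of 0.15, -0.21, -0.10, -0.10 and -0.09. *Cspg4* and *Pecam1* had mean signals of 4.84 and 3.68, within the range of the genes from other organs. The part of the neuronal markers and of *Ttr* in the higher *Tenm2*, *Flrt2* and *Flrt3* signal with STEE was not tested.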

How the data were processed

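Total RNA of the cerebral cortex of 6 mice was hybridised by the authors to Affymetrix mouse expression array strips after amplification and biotin labelling. The submitters' processing notes name RMA, Affymetrix Expression Console and Transcriptome Analysis Console. The authors deposited, in 2 comparison tables, group averages of log2 signal (named bi-weight averages, 2 decimals). Averaging over the 2 mice of a group hides their spread. The 3 further columns of each table hold the authors' own fold changes, ANOVA p-values and FDR p-values, and were not used. The SAMP8 control means were identical in both tables. The number of arrays limits the precision, and depth does not apply.

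Groups followed the sample titles. Log2 differences were taken between group means in Python 3.11.15 with numpy 2.4.6, pandas 2.3.3 and matplotlib 3.10.9, with no filter. No test over samples was run, because the columns used hold group means and the authors' p-values were set aside. A difference of at least 1.2-fold was counted, beside the same share over all probe sets, or over all genes for gene lists. This counting was tested on simulated data. Named were all probe sets of the members, the partner list, the first 2 markers of each list, and the 3 genes nearest in profile to each member among single-symbol genes above the median signal. *Plekhg1*, *Lef1*, *Kl*, *Kcnj13*, *Clic6*, *Neurod6*, *Tbr1* and *Wfs1* were named after their values were seen. *Drd1* was matched by its older symbol Drd1a. Promoter and microRNA sequences come from RefSeq tables of GRCm38.p6, and the motifs were chosen with the sequences at hand. Of the gene lists, 1 partner gene and 1 myelin gene are not reported here and were left out of the counts. The members and lists were chosen with earlier results of these data known. Alternatives were other fold thresholds, other ways to combine probe sets, a filter on dim probe sets, centring, quantile normalization, and the SAMP8 control mean of the other table.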

Additional observations from a re-analysis of the deposited data

How the results depend on the processing

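Of 72 alternative values of the gene differences, 66 moved by less than the robust standard deviation of that difference over all probe sets, which was 0.104 for the strain difference, 0.089 for the STEE difference and 0.119 between STEE-fed SAMP8 and SAMR1. The other 6 belonged to *Tenm1*, whose 2 probe sets differ: by the mean or median of its probe sets, or their mean above the median signal, it was -0.12 for the strain difference in place of 0.00, and -0.09 between STEE-fed SAMP8 and SAMR1 in place of 0.03. Several alternatives could not differ from each other or from the main value. All 11 teneurin probe sets were above the median signal, so the filter on dim probe sets dropped none. The mean and median of 2 probe sets are the same, and the SAMP8 control means of both tables were identical. The number 66 of 72 therefore overstates how stable the values are. No difference past 1.2-fold changed sign. The STEE difference of *Tenm2*, 0.29 at its brightest probe set, was 0.24 and no longer 1.2-fold by the mean of its probe sets. The filter on dim probe sets gave the same 0.24, because it dropped none. Under the other 4 alternatives the difference was 0.27 to 0.29. With a threshold of 1.1-fold, 5 of 11 teneurin probe sets had a negative strain difference, against 13.5% of all probe sets, and 6 a positive STEE difference, against 8.25%. Between STEE-fed SAMP8 and SAMR1 1 was higher and 2 lower with STEE, against 13.7% and 13.9%. At 1.5-fold the first 2 numbers were 1 and 0, against 0.37% and 0.0222%. Of the 14 partner genes, 3 had a negative strain difference at 1.1-fold and 4 a positive STEE difference, against 12.4% and 7.73% of all genes, and against SAMR1 3 were higher and 1 lower with STEE, where 13.9% and 12.7% of all genes were. By the median over a gene's probe sets, 1 partner gene was higher with STEE at 1.2-fold in place of 2, against 0.701% of all genes. No paired analysis was possible because the deposited columns are group averages that carry no replicate number, and leaving out a mouse was not possible for the same reason. Levels near those of genes from other organs, as at 1 *Tenm2* probe set, limit what that probe set can show.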
